A study of Mus musculus with 18 samples.

Results

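Iron uptake, storage and hormonal control were followed in mouse liver through 10 genes, Hamp, Hamp2, Tfrc, Tfr2, Trf, Fth1, Ftl1, Slc40a1, Hfe and Bmp6. They were chosen by name, with earlier results of these data known, and all 10 were found among the 14451 genes of the normalized table. The livers came from WT male mice aged 8 to 9 weeks, held in 12 h of light and 12 h of dark. Livers were taken at zeitgeber times (ZT, hours after lights on) 1, 5 and 9, in the light, and 13, 17 and 21, in the dark. Each of the 6 time points had 3 livers, each from its own mouse, so none of the 18 animals was followed over time. More mice were kept than were sequenced, and those with the best RNA were used, so the livers are a selected sample. All groups shared genotype, sex and light regime, and no iron diet, iron load or other treatment was given in the labels. RNA was polyA selected from whole liver, so every cell type of the organ contributed.

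The liver takes up iron bound to transferrin (Trf) through transferrin receptor 1 (Tfrc), stores it in ferritin, which is built from heavy (Fth1) and light (Ftl1) chains, and releases it through ferroportin (Slc40a1), the iron exporter. Hepcidin, the peptide hormone encoded by Hamp, is made by hepatocytes, binds ferroportin and causes its breakdown, and its transcription is raised by BMP6, a ligand made mainly by sinusoidal endothelial cells, and by interleukin 6. Iron regulatory proteins bind hairpins called iron responsive elements (IREs), which hold back translation when they lie before the coding sequence and protect the transcript when they lie after it.

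The IRE sequences are shown because they set the transcripts of uptake apart from those of storage and export. A search for an unpaired C, a stem of 5 base pairs (G-U allowed) and the loop CAGTGN found them in 4 of the 10 members. The search covered the principal transcript of each gene in GENCODE M21 of GRCm38, on the transcript strand. In the lines that follow, capitals mark the unpaired C and the loop of 6 bases.
Tfrc, 3′ UTR, chr16:32631219-32631247, plus strand: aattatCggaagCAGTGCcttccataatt
Tfrc, 3′ UTR, chr16:32631598-32631626, plus strand: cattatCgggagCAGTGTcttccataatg
Tfrc, 3′ UTR, chr16:32631663-32631691, plus strand: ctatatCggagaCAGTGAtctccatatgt
Tfrc, 3′ UTR, chr16:32631710-32631738, plus strand: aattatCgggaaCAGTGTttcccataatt
Slc40a1, 5′ UTR, chr1:45925465-45925493, minus strand: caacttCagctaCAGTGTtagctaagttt
Fth1, 5′ UTR, chr19:9982732-9982760, plus strand: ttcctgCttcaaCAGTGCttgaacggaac
Ftl1, 5′ UTR, chr7:45459779-45459807, minus strand: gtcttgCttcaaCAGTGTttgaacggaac
Of the principal transcripts of 21901 genes, 0.0959% held such a match in the 5′ UTR and 0.507% in the 3′ UTR. A match is a match of letters only, and neither binding nor translation was measured in these livers.

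The mouse has 2 hepcidin genes side by side on chromosome 7 of GRCm38, Hamp from 30942368 to 30944032 and Hamp2 from 30922372 to 30924681, both on the minus strand. Their upstream sequences are shown side by side, and whether they bear on the course of either gene was not tested. Each line holds the 250 bases before the RefSeq start of the gene in GRCm38.p6. The line of Hamp2 lies inside the interval given above for that gene, which is that of GENCODE M21. It is therefore upstream of the RefSeq start only. Capitals mark matches to GGCGCC, the core of the BMP response element, and to TTCNNNGAA, a STAT element.
Hamp, chr7:30944030-30944279, minus strand: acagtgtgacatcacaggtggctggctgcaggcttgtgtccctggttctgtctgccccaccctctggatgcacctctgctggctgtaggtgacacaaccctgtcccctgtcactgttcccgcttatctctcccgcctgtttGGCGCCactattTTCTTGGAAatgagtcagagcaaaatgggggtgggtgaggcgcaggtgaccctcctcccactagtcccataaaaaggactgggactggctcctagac
Hamp2, chr7:30924182-30924431, minus strand: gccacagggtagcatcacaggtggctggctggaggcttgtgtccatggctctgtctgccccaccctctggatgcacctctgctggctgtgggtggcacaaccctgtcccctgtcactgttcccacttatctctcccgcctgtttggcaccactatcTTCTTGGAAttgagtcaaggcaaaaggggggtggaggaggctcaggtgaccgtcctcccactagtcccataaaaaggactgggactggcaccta
The 2 upstream sequences were identical in 227 of 253 aligned columns (89.7%). Hamp held GGCGCC from -109 to -104, and at the aligned place Hamp2 differed by G4A, with positions counted from 1 at the first base of the motif in Hamp. Both held TTCTTGGAA, from -97 to -89 in Hamp and from -94 to -86 in Hamp2. The 250 bases before the start were read on both strands in all 32851 promoters of the RefSeq table. Of these, 9.59% held GGCGCC and 7.02% held TTCNNNGAA. The table had promoters for 8 of the 10 members. In the same windows the E-box CACGTG (6.02% of all promoters) was found in Bmp6, GGCGCC in Tfrc, the heat shock element GAANNTTC (6.69% of all promoters) in Tfr2, and the D-box TTANNTAA (5.43%) and ROR element AGGTCA (14.0%) in no member. No match says only that these letters were not in the window.

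The values in the table, called normalized values here, are estimated read counts with 0.5 added, expressed per 1000000 reads of the library size that the normalization set. Depth lay between 10268168 and 23242842 estimated reads per liver (median 12078875). All 8 hepatocyte markers were detected, and their summed value was between 77019 and 106906 per liver. The other cell types of the organ were present at much lower summed values, from 145 to 364 per liver for 10 Kupffer cell markers, from 181 to 390 for 10 sinusoidal endothelial markers, from 251 to 430 for 8 stellate cell markers and from 108 to 674 for the 5 erythroid and blood markers in the table. The 3 neutrophil markers in the table summed to between 0.893 and 2.72, and the 6 proliferation markers to between 7.32 and 21.3. Of these lists, 3 of 8 hepatocyte, 1 of 8 stellate, 1 of 3 neutrophil and 1 of 6 proliferation markers were called for a 24 h rhythm by limma, which called 36.8% of all genes. Of the erythroid markers 0 of 5 were called, with a lowest adjusted p of 0.233 and 0 at an unadjusted p under 0.05.

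The members spanned a wide range of levels. Mean values divided by the length of the principal transcript were 5332 per kb for Trf, 2617 for Ftl1, 1246 for Hamp, 661 for Fth1, 115 for Tfr2, 95.1 for Hamp2, 43.7 for Slc40a1, 10.8 for Hfe, 6.88 for Tfrc and 0.788 for Bmp6. For Fth1 that transcript counts 795 bases of 5′ UTR among 1494, so its level per length depends on the transcript chosen. Thus the plasma carrier, ferritin and hepcidin transcripts were the most abundant per length and the BMP ligand the least. Estimated reads per liver were at least 174 for every member except Bmp6, which had between 8 and 90 (median 31.5).

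**Figure D1:**
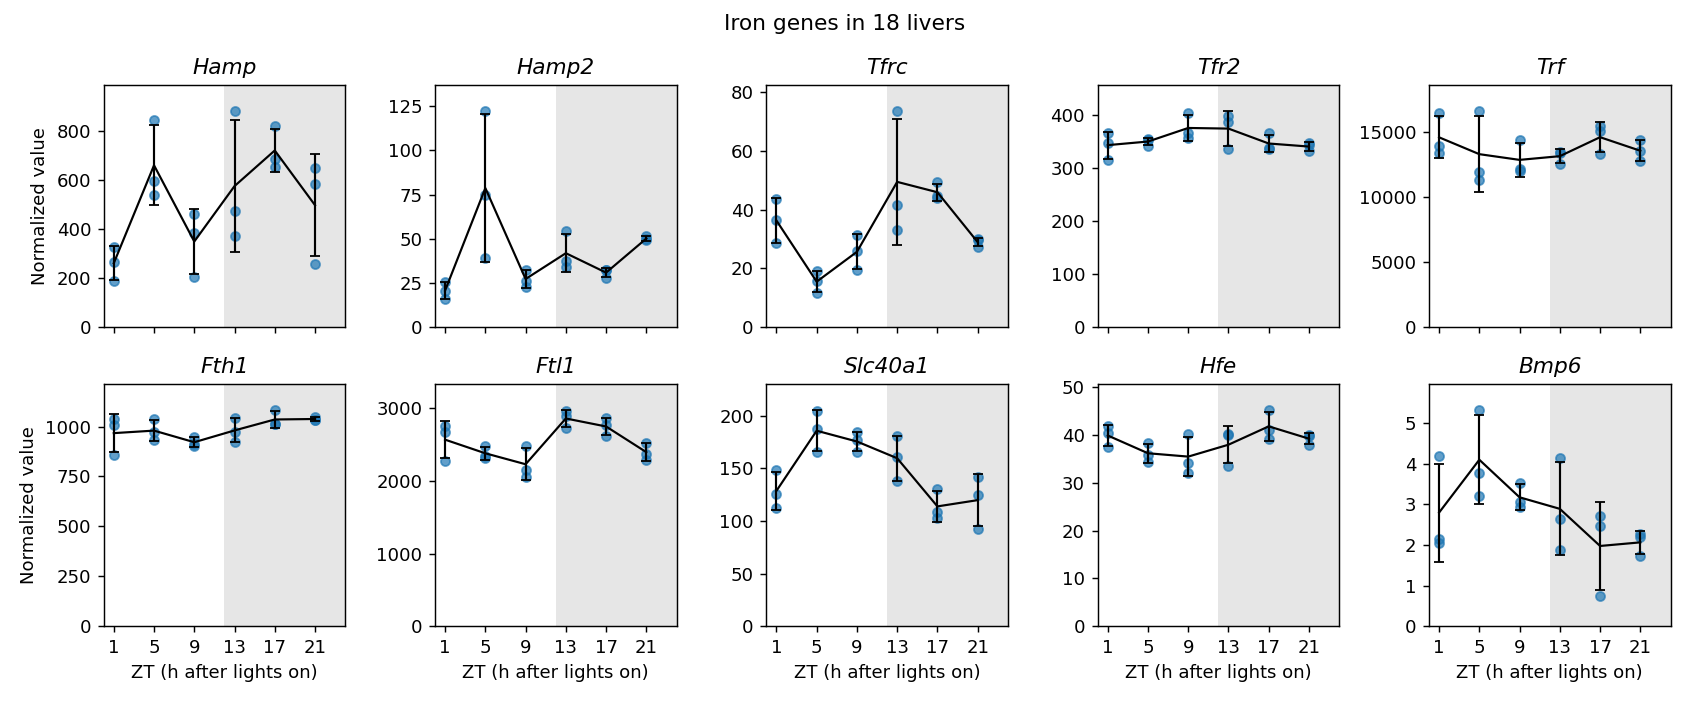
Normalized value (y axis, from 0, its own scale for each gene) of the 10 iron genes against ZT in hours (x axis), with 1 point per liver, the mean and SD of the 3 livers at each time point in black, and the dark phase shaded. Tfrc is lowest at ZT5 (15.5 ± 3.67), Slc40a1 and Bmp6 are highest at ZT5 and lowest at ZT17, Hamp2 stands highest at ZT5, and Tfr2, Trf, Fth1 and Hfe change by at most 1.18 times between time point means.

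Of the 10 members, 3 had a 24 h rhythm in a cosine fit by limma with Benjamini–Hochberg adjustment over all genes, Tfrc, Slc40a1 and Bmp6, against 36.8% of all genes tested. JTK called 2 members (14.1% of all genes) and MC, which joins JTK with Lomb–Scargle, called 2 (18.3% of all genes), Tfrc and Slc40a1 in both. Both methods were rewritten here, and each called fewer genes than the authors report as shared by JTK and MC in these livers. A test among the 6 time points that assumes no curve called 4, Tfrc, Slc40a1, Hamp and Hamp2 (29.2% of all genes). In 8 of the 10 members the livers of the highest and of the lowest time point did not overlap (70.8% of all genes), so such a gap was common in this table. The median 24 h amplitude was 0.11 on the log2(value + 1) scale over the 10 members and 0.16 over all genes. These shares lie near those of the whole table, and the members were therefore read gene by gene.

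Transferrin receptor 1 was the uptake gene that changed. Tfrc (ENSMUSG00000022797, chromosome 16, 32608920 to 32632794) had normalized values of 36.6, 28.6 and 43.8 at ZT1, 19.1, 11.8 and 15.6 at ZT5, and 26.0, 19.5 and 31.4 at ZT9. In the dark it had 33.2, 41.6 and 73.7 at ZT13, 49.3, 43.9 and 44.6 at ZT17, and 29.9, 27.3 and 29.7 at ZT21. The livers of ZT5 lay below every other liver and those of ZT17 above every light phase liver, while those of ZT13 were widely spread. Time point means fell in the order ZT13, ZT17, ZT1, ZT21, ZT9 and ZT5, and ran from 49.5 ± 21.4 (SD, n = 3) down to 15.5 ± 3.67 (SD, n = 3), a ratio of 3.20. Among neighbours in this order, ZT13 overlapped ZT17, ZT1 overlapped ZT21, and ZT21 overlapped ZT9. The fitted amplitude was 0.61 ± 0.133 (SE) on the log2(value + 1) scale with a peak at ZT16.7 ± 0.838 h (SE), and limma with Benjamini–Hochberg adjustment gave an adjusted p of 0.00441. Adjusted p-values were 0.0278 by JTK and 0.0154 by MC. The calls by JTK and by MC were both lost when any 1 of the 3 livers of ZT5 was left out. Adjusted p-values were then from 0.0731 to 0.0791 by JTK and from 0.0581 to 0.0720 by MC. The limma call held without any single liver (adjusted p at most 0.0164). Dividing cells and red cell precursors carry much of this receptor. The summed proliferation markers were also highest at ZT13, with 19.9, but lowest at ZT1, with 9.36. Among them Rrm2 was higher in the dark by limma (0.55 on the log2(value + 1) scale, adjusted p = 0.00413). The dark estimate was lower in Mki67, Top2a, Ccnb1 and Cdk1 and higher in Birc5, without passing. The summed erythroid markers had their highest mean at ZT5, with 368 ± 269 (SD, n = 3), where Tfrc was lowest. Their livers at ZT5 ran from 172 to 674. Their part in the change of Tfrc was not tested.

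The plasma carrier and the second receptor changed little. Trf (ENSMUSG00000032554, chromosome 9, 103204001 to 103230444), which encodes the plasma iron carrier, ranged from 11367 to 16665 over the 18 livers, and its lowest and highest time points overlapped. Tfr2 (ENSMUSG00000029716, chromosome 5, 137569840 to 137587481), a receptor through which hepatocytes sense iron-loaded transferrin, ranged from 316 to 403, with its lowest mean, 340.2 ± 8.06, at ZT21 and its highest, 375 ± 24.5, at ZT9 (SD, n = 3 for both). Neither was called by limma for a 24 h rhythm, where the Benjamini–Hochberg adjusted p was 0.622 for Trf and 0.130 for Tfr2. The dark phase differed from the light phase by 0.03 (95% interval -0.18 to 0.23) in Trf and by -0.01 (95% interval -0.10 to 0.08) in Tfr2 on the log2(value + 1) scale.

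Both ferritin chains stayed within a narrow range. Fth1 (ENSMUSG00000024661, chromosome 19, 9980598 to 9985098), the heavy chain with the ferroxidase site, ranged from 859.6 to 1083, with a mean of 922 ± 24.8 (SD, n = 3) at ZT9 and 1038 ± 8.62 (SD, n = 3) at ZT21. No test called it (limma, adjusted p = 0.189 for the 24 h rhythm and 0.436 among time points). Ftl1 (ENSMUSG00000050708, chromosome 7, 45457944 to 45459884), the light chain, had 2281, 2757 and 2674 at ZT1, 2342, 2323 and 2484 at ZT5, 2481, 2056 and 2159 at ZT9, 2734, 2960.3 and 2894 at ZT13, 2622, 2769.7 and 2865 at ZT17, and 2373, 2292 and 2529 at ZT21. Every liver of ZT13 was above every liver of ZT5, ZT9 and ZT21, and the means of ZT13 and ZT9 were in a ratio of 1.28. By limma it came just short of the threshold among time points (adjusted p = 0.0519) and between phases (0.0502), and the first test passed without liver 1 of ZT1 or of ZT9 (0.0307 to 0.0341). Both calls depended on the processing, since among 5 other settings the gene passed among time points under 2 (0.0398 to 0.0464) and between phases under 4 (0.0397 to 0.0467). Within each liver, the value of Ftl1 was between 2.19 and 3.13 times that of Fth1, with the highest mean ratio at ZT13 (2.93 ± 0.274, SD, n = 3) and the lowest at ZT21 (2.31 ± 0.128, SD, n = 3).

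The exporter was highest in the light phase, unlike the uptake receptor. Slc40a1 (ENSMUSG00000025993, chromosome 1, 45908068 to 45926523) had values of 148, 125 and 112 at ZT1, 165, 187 and 205 at ZT5, and 177, 166 and 184 at ZT9. In the dark it had 180.3, 138 and 161 at ZT13, 103, 109 and 130.3 at ZT17, and 125, 92.7 and 142 at ZT21. All livers of ZT5 and ZT9 were above all livers of ZT1, ZT17 and ZT21, and those of ZT13 overlapped every time point but ZT17. ZT5 had the highest mean, 186 ± 19.7 (SD, n = 3), and ZT17 the lowest, 114 ± 14.6 (SD, n = 3), a ratio of 1.63. The amplitude was 0.38 ± 0.0591 (SE) with a peak at ZT7.83 ± 0.601 h (SE), and the adjusted p was 0.000212 by limma, 0.0431 by JTK and 0.0163 by MC. The limma call held without any single liver (adjusted p at most 0.000687), and the JTK call was lost in 14 of the 18 runs that left out 1 liver (adjusted p from 0.0548 to 0.0791), those being all but liver 2 or 3 of ZT1, liver 1 of ZT13 and liver 3 of ZT21.

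Ferroportin is abundant in Kupffer cells, the macrophages of the liver, and the summed Kupffer cell markers moved with it. The sums were 242 ± 80.2 at ZT1, 315 ± 44.4 at ZT5, 319 ± 32.0 at ZT9, 295 ± 48.9 at ZT13, 238 ± 91.6 at ZT17 and 196 ± 44.7 at ZT21 (SD, n = 3 each), and all 10 markers were detected. By limma, 5 of the 10 had a 24 h rhythm (36.8% of all genes did), all with peaks between ZT8.10 and ZT8.83. How many of all rhythmic genes peaked in that window was not counted. The summed sinusoidal endothelial markers were also higher at ZT5 (360 ± 29.4) and ZT9 (336 ± 39.4) than at ZT17 (268 ± 77.9) and ZT21 (246 ± 53.1, SD, n = 3 each). A course like that of Slc40a1 was therefore not particular to Kupffer cells. The part of either set of markers in the change of Slc40a1 was not tested. In whole liver, fewer cells of a type and less RNA per cell cannot be told apart.

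**Figure D2:**
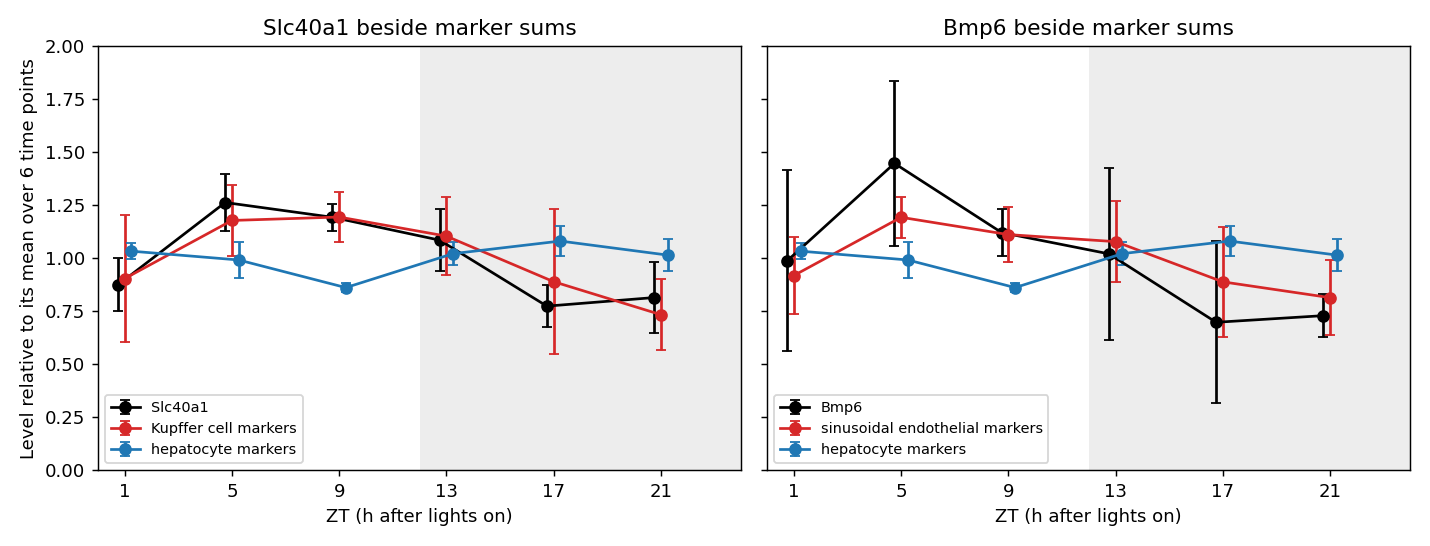
Level relative to its own mean over the 6 time points (y axis, from 0) against ZT in hours (x axis), as mean and SD of 3 livers, with Slc40a1 beside the Kupffer cell and hepatocyte marker sums on the left and Bmp6 beside the sinusoidal endothelial and hepatocyte marker sums on the right. Both genes and both non-parenchymal sums are higher at ZT5 and ZT9 than at ZT17 and ZT21, and the hepatocyte sum has its lowest mean at ZT9.

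Hepcidin transcripts differed among time points, while their 24 h cosine fits did not pass the threshold. Hamp (ENSMUSG00000050440) had values of 329, 264 and 189 at ZT1, 538, 598 and 846 at ZT5, and 462, 203 and 384 at ZT9. In the dark it had 883, 472 and 372 at ZT13, 821, 654 and 688 at ZT17, and 649, 259 and 585 at ZT21. All livers of ZT1 were below all those of ZT5, ZT13 and ZT17, while livers of ZT5, ZT9, ZT13 and ZT21 were spread over ranges of more than 250 units. Means fell in the order ZT17, ZT5, ZT13, ZT21, ZT9 and ZT1, each overlapping the next, from 721 ± 88.5 (SD, n = 3) to 261 ± 69.8 (SD, n = 3), a ratio of 2.77. The limma test among time points gave an adjusted p of 0.0168, which became 0.0563 without liver 3 of ZT1. The 24 h cosine gave an amplitude of 0.35 ± 0.197 (SE) and an adjusted p of 0.327, and JTK and MC did not call the gene. Mean replicate CV within time points was 31.8%, against a median of 13.8% over all genes.

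Hamp2 (ENSMUSG00000056978) had its lowest mean at ZT1, as Hamp did, and its highest at ZT5. Its values were 16.1, 20.4 and 25.5 at ZT1, 74.7, 38.9 and 122 at ZT5, and 32.4, 26.3 and 22.9 at ZT9. In the dark they were 54.3, 37.2 and 34.0 at ZT13, 27.7, 32.5 and 32.2 at ZT17, and 49.8, 51.4 and 49.2 at ZT21. The mean of ZT5 was the highest (78.7 ± 41.8) and that of ZT1 the lowest (20.7 ± 4.72, SD, n = 3 for both), a ratio of 3.80, and the livers of ZT21 lay close together at 50.1 ± 1.18 (SD, n = 3). Limma gave an adjusted p of 0.000839 among time points and 0.932 for the 24 h cosine. At ZT17, where Hamp had its highest mean, 3 time points had a higher mean of Hamp2, and the ratio of Hamp to Hamp2 was 23.7 ± 5.20 (SD, n = 3) there. The mean ratio at the other time points was between 9.82 ± 4.80 at ZT5 and 13.6 ± 6.53 at ZT1 (SD, n = 3 for both), and the highest liver of ZT1 (20.4) overlapped the lowest of ZT17 (20.1). The difference in course between the genes was not tested. The 2 principal transcripts were identical in 388 of 437 aligned columns (88.8%), and 60 of the 361 windows of 50 bases in Hamp (16.6%) were found unchanged in Hamp2. RSEM divides such reads between genes. The mean value was 511 for Hamp and 41.6 for Hamp2, so Hamp reads given to Hamp2 could weigh more on Hamp2 than that share. How far they shaped the level and course of Hamp2, or its correlation with Hamp, was not tested. Whether counting used strand is not given in the sources used here.

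A second term with a period of 12 h was also fitted, which can follow a gene with 2 high points a day. By limma it passed the adjusted threshold in 0 of the 10 members (1.22% of all genes) and an unadjusted p of 0.05 in 3 (12.9% of all genes), with unadjusted p-values of 0.00824 in Hamp (adjusted 0.191), 0.00512 in Tfrc (adjusted 0.152) and 0.0132 in Ftl1 (adjusted 0.232). For Hamp2 the unadjusted p was 0.168. JTK and MC were not run at this period.

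Of the regulators of hepcidin among the members, Bmp6 passed only the 24 h cosine test by limma, and Hfe and Tfr2 passed no test. Among the 6 time points, limma gave Bmp6 an adjusted p of 0.171. Bmp6 (ENSMUSG00000039004, chromosome 13, 38345107 to 38500302) had values of 4.19, 2.05 and 2.15 at ZT1, 5.32, 3.20 and 3.77 at ZT5, and 3.53, 2.94 and 3.05 at ZT9. In the dark it had 4.13, 1.88 and 2.65 at ZT13, 2.71, 0.735 and 2.48 at ZT17, and 1.74, 2.20 and 2.26 at ZT21. All livers of ZT5 and ZT9 were above all livers of ZT17 and ZT21, and the order of the means was that of Slc40a1, from 4.09 (ZT5, SD 1.10, n = 3) to 1.97 (ZT17, SD 1.08, n = 3). The amplitude was 0.37 ± 0.108 (SE) with a peak at ZT6.47 ± 1.11 h (SE), and limma with Benjamini–Hochberg adjustment gave an adjusted p of 0.0291. This call was lost without liver 1 or 3 of ZT5, liver 2 of ZT17 or liver 1 of ZT21 (adjusted p from 0.0507 to 0.0738), JTK and MC did not make it (adjusted p = 0.417 and 0.608), and the lowest liver rested on 8 estimated reads.

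BMP6 is made mainly by sinusoidal endothelial cells, and the summed markers of these cells moved with it, from 360 ± 29.4 at ZT5 and 336 ± 39.4 at ZT9 to 268 ± 77.9 at ZT17 and 246 ± 53.1 at ZT21 (SD, n = 3 each). All 10 of these markers were detected, and 5 had a 24 h rhythm by limma (36.8% of all genes did) with peaks between ZT6.46 and ZT9.19. The Kupffer cell sums given above were likewise higher at ZT5 and ZT9 than at ZT17 and ZT21. A course like that of Bmp6 was therefore not particular to endothelial cells. The part of either set of markers in the change of Bmp6 was not tested. Hfe (ENSMUSG00000006611, chromosome 13, 23702034 to 23710854), the MHC class I-like protein mutated in hereditary haemochromatosis, ranged from 32.2 to 45.3, with adjusted p = 0.0998 by limma for the 24 h rhythm and overlapping livers at its highest (ZT17) and lowest (ZT9) time points.

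**Figure D3:**
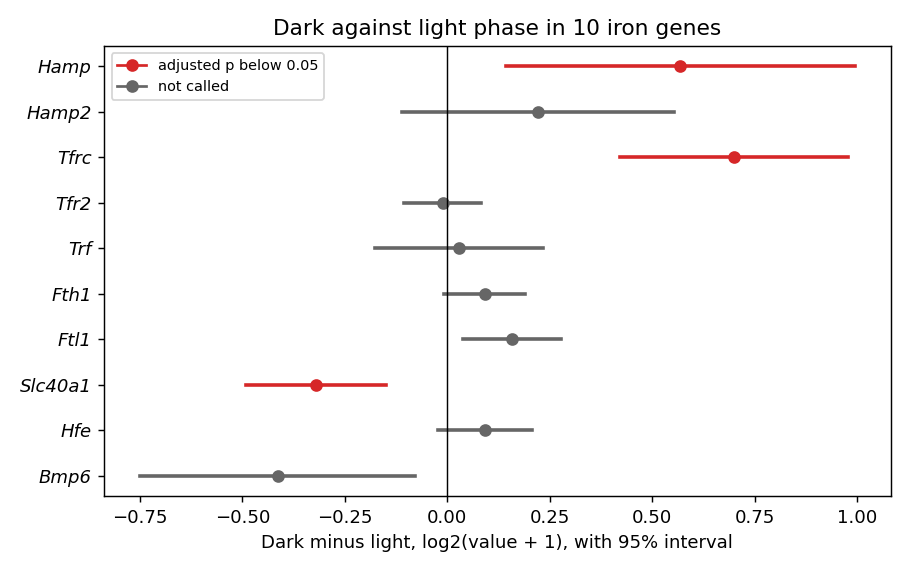
Difference between the dark and the light phase for each of the 10 genes on the log2(value + 1) scale (x axis), with points for the limma estimate from 9 dark and 9 light livers and bars for the 95% interval, in red where the Benjamini–Hochberg adjusted p passed 0.05. Tfrc (0.70) and Hamp (0.57) lie to the right of 0 and Slc40a1 (-0.32) to the left, and Ftl1 and Bmp6 have intervals that leave out 0 without passing after adjustment.

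Between phases, uptake receptor and hepcidin were higher in the dark and the exporter was lower. By limma, 2 members were higher in the dark (12.9% of all genes) and 1 was lower (12.9% of all genes). Tfrc was 1.63-fold higher in the dark on the log2(value + 1) scale, a difference of 0.70 ± 0.133 (SE, adjusted p = 0.000805), and 4 of its 9 dark livers were above all 9 light livers. Slc40a1 differed by -0.32 ± 0.0817 (SE, adjusted p = 0.00785), and 3 of its 9 light livers were above all dark ones. Hamp differed by 0.57 ± 0.202 (SE), with medians of 384 in the light and 649 in the dark and broadly overlapping livers. Its adjusted p of 0.0461 was close to the threshold and missed it on leaving out any of 13 single livers (0.0503 to 0.101), namely those without liver 2 or 3 of ZT1, 1 or 2 of ZT5, 2 or 3 of ZT9, 1 or 2 of ZT13, any of ZT17, and 1 or 3 of ZT21. Bmp6 differed by -0.41 ± 0.160 (SE, adjusted p = 0.0649) and passed without liver 1 of ZT13 or liver 1 or 3 of ZT17 (0.0348 to 0.0498). Ftl1 differed by 0.16 ± 0.0573 (SE, adjusted p = 0.0502) and passed without liver 2 of ZT1, liver 1 of ZT9 or liver 1 of ZT13 (0.0261 to 0.0455).

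Hepcidin was then set beside 6 genes liver by liver, with a two-sided permutation test and Benjamini–Hochberg adjustment over the 6 pairs. Over the 18 livers, Hamp correlated with Hamp2 at r = 0.53 (permutation p = 0.0222, adjusted 0.0752) and rho = 0.52 (p = 0.0293, adjusted 0.0592). For Id1, a target gene of BMP signalling, r was 0.49 (permutation p = 0.0371, adjusted 0.0752) and rho 0.52 (p = 0.0296, adjusted 0.0592). For Smad7, an inhibitor that BMP signalling itself induces, r was 0.49 (permutation p = 0.0376, adjusted 0.0752) and rho 0.57 (p = 0.0153, adjusted 0.0592). No pair passed after adjustment, while 3 passed unadjusted. Without the 2 livers farthest from the median of Hamp (liver 3 of ZT1 and liver 2 of ZT9), r was 0.50 with Hamp2, 0.31 with Id1 and 0.44 with Smad7. The other three pairs had r of 0.09 with Bmp6, -0.15 with Saa1 and -0.06 with Tfrc, and rho of 0.15, 0.08 and 0.08, with permutation p of at least 0.542.

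With time point means taken out, 1 of the 6 pairs passed. The deviations of Hamp and Smad7 from their time point means correlated at r = 0.52 (permutation within time points, p = 0.00490, adjusted 0.0294), but with the same adjustment this call was lost in 11 of 18 runs that left out 1 liver (adjusted permutation p = 0.0512 to 0.115). It held without any 1 of the livers of ZT9, liver 2 or 3 of ZT13, liver 3 of ZT17 or liver 3 of ZT21, and r ran from 0.44 to 0.60 over all the runs. The livers of ZT1, ZT5, ZT17 and ZT21 fell in the same order for both genes, with Smad7 at 6.69, 11.8 and 15.7 at ZT5 and at 8.61, 4.02 and 6.96 at ZT17. At ZT13 the same liver was highest in both, while at ZT9, where Smad7 had 6.09, 6.66 and 7.07, the liver highest in Hamp was lowest in Smad7. For Hamp2 the deviations gave r = 0.23 (permutation p = 0.333), and for Id1 r = 0.13 (permutation p = 0.688, adjusted 0.688). Deviations gave r = 0.32 with Bmp6 (adjusted permutation p = 0.397), -0.46 with Saa1 (0.397) and -0.17 with Tfrc (0.688). Like those of Hamp2, the means of Id1 were highest at ZT5 (8.43 ± 2.88) and lowest at ZT1 (1.99 ± 0.360, SD, n = 3 for both).

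The genes around the members were described through 5 lists of the iron pathway. The lists were chosen with earlier results of these data known, so their shares are a description only. Of 70 genes in the table, 40 had a 24 h rhythm by limma (57.1%, against 36.8% of all genes), with a median amplitude of 0.23 on the log2(value + 1) scale against 0.16 over all genes. Between phases, 7 of the 70 were higher in the dark (10%) and 12 lower (17.1%), against 12.9% of all genes in each direction.

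The BMP and SMAD list, which carries the iron signal to the hepcidin promoter, had 6 of 18 genes with a rhythm (33.3%, against 36.8% of all genes). Of these 6 genes, 4 peaked between ZT3 and ZT9. The share of all rhythmic genes that peaked in this or any other window was not counted. Smad9, a receptor-activated SMAD, had an amplitude of 0.46 ± 0.114 (SE, peak ZT6.40, adjusted p = 0.0109). Bmp2, another ligand of liver endothelial cells, had 0.40 ± 0.0981 (peak ZT6.13, adjusted p = 0.00965), and so peaked near Bmp6. Hfe2, the gene of the BMP co-receptor hemojuvelin, went the other way, with an amplitude of 0.30 ± 0.0540 (SE) and a peak at ZT19.5 (adjusted p = 0.000671), and was 0.36 higher in the dark on the log2(value + 1) scale. Smad4, the common partner of the SMADs, had 0.22 ± 0.0460 with a peak at ZT5.15 (adjusted p = 0.00284), and Id2, a target gene, had 0.31 ± 0.0876 with a peak at ZT1.46 (adjusted p = 0.0231, lost without liver 1 of ZT1 or liver 3 of ZT13 at 0.0577 to 0.0729).

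The interleukin 6 and STAT3 list had 5 of 8 genes with a rhythm (62.5%). Il6ra, the receptor of interleukin 6, had a mean of 19.1 ± 2.73 at ZT1 and of 62.0 ± 4.38 at ZT9 (SD, n = 3 for both), with an amplitude of 0.82 ± 0.0876 (SE) and an adjusted p of 2.68e-06 by limma. Socs3, a feedback inhibitor that STAT3 induces, had an amplitude of 0.82 ± 0.172 (SE) with a peak at ZT8.61 (adjusted p = 0.00300). The kinase gene Jak2 had 0.28 ± 0.0514 with a peak at ZT4.68 (adjusted p = 0.000955). The calls of Il1r1 (adjusted p = 0.0244) and Jak1 (0.0485) were weaker, being lost without liver 3 of ZT1 or liver 1 of ZT13 in Il1r1 (0.0660 to 0.0727) and in 13 of 18 fits in Jak1 (0.0515 to 0.138).

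**Figure D4:**
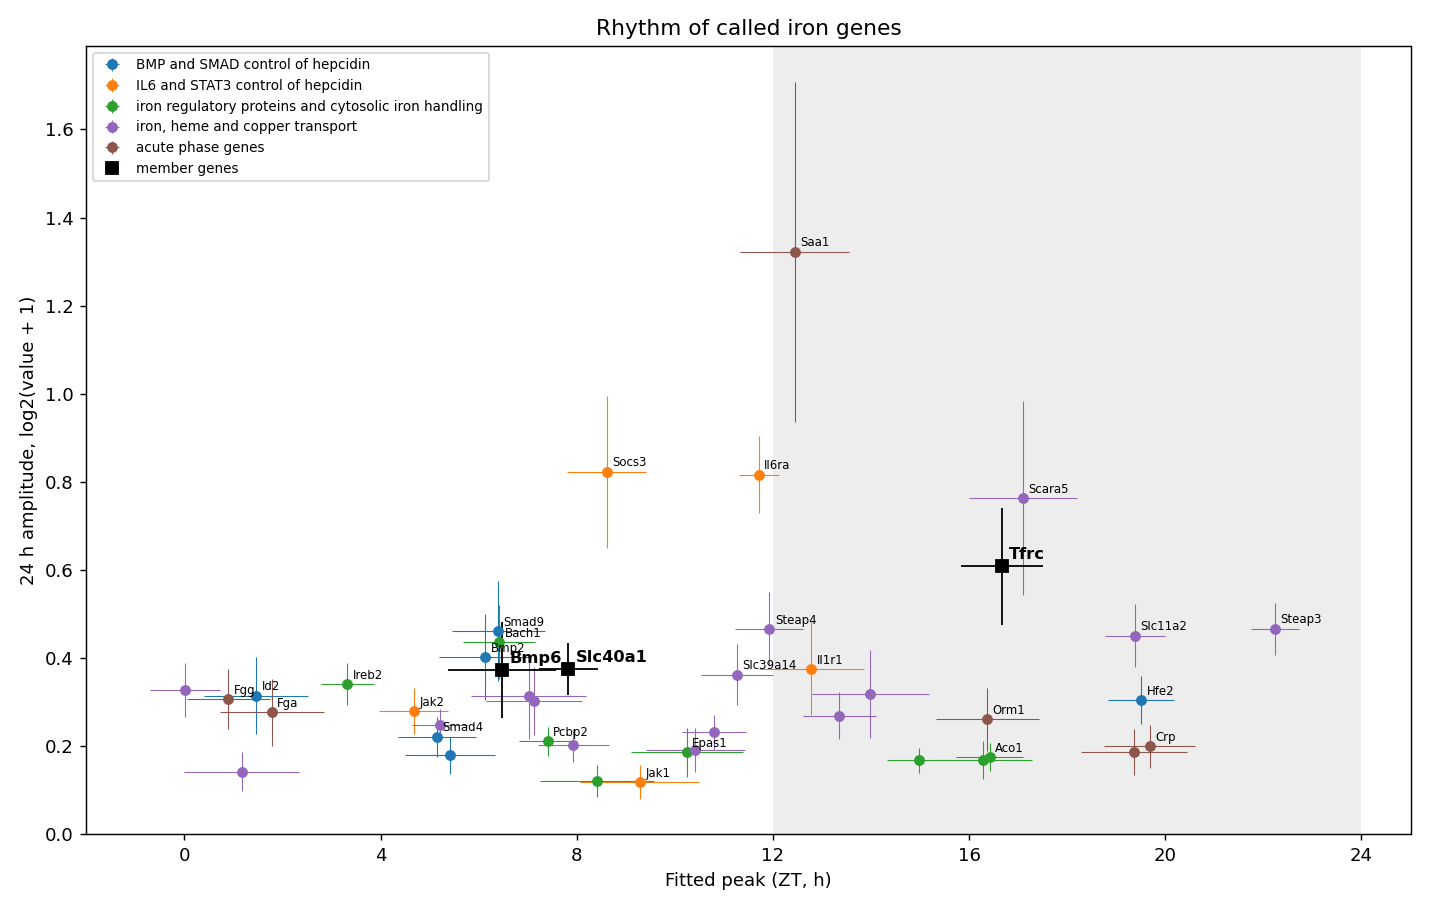
Fitted 24 h amplitude on the log2(value + 1) scale (y axis, from 0) against fitted peak time in ZT hours (x axis) for the genes called by limma, with bars for the SE, black squares for the 3 called members, colours for the 5 lists, names for at most 5 genes per list and the dark phase shaded. Slc40a1 and Bmp6 lie between ZT6 and ZT8 near Smad9, Bmp2 and Bach1, and Tfrc lies at ZT16.7 near Scara5.

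The list of iron regulatory proteins and cytosolic iron handling had 8 of 12 genes with a rhythm (66.7%). The 2 iron regulatory proteins that read IREs peaked far apart. Aco1, which encodes iron regulatory protein 1, had an amplitude of 0.18 ± 0.0313 (SE) with a peak at ZT16.4 ± 0.683 h (SE, adjusted p = 0.000739). That peak lay within the SE of the peak of Tfrc, and a link between the 2 transcripts was not tested. Ireb2, which encodes iron regulatory protein 2, had 0.34 ± 0.0477 with a peak at ZT3.32 ± 0.535 h (adjusted p = 6.24e-05), its mean being 128 ± 21.9 at ZT5 and 80.3 ± 12.6 at ZT13 (SD, n = 3 for both). Bach1, a haem-regulated repressor, had 0.44 ± 0.0841 with a peak at ZT6.42 (adjusted p = 0.00148), and Pcbp2, an iron chaperone, had 0.21 ± 0.0329 with a peak at ZT7.41 (adjusted p = 0.000192). Epas1, the hypoxia factor HIF2 alpha, had 0.19 ± 0.0556 with a peak at ZT10.2 (adjusted p = 0.0348, lost without liver 2 of ZT1, liver 3 of ZT13, or liver 1 or 3 of ZT21 at 0.0512 to 0.0830).

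Transport of iron, haem and copper had 15 of 20 genes with a rhythm, and their peaks were spread around the day, with 4 between ZT3 and ZT9, 6 between ZT9 and ZT15, 2 between ZT15 and ZT21 and 3 between ZT21 and ZT3. Scara5, a receptor for ferritin, had the largest amplitude of these, 0.76 ± 0.221 (SE, peak ZT17.1, adjusted p = 0.0288), which did not pass without liver 1 or 3 of ZT5 or liver 3 of ZT17 (0.0520 to 0.0907). Slc11a2 (DMT1), which moves iron out of the endosome after uptake by transferrin receptor, had a mean of 47.0 ± 3.68 at ZT17 and of 23.4 ± 3.08 at ZT5 (SD, n = 3 for both), so that its lowest time point was that of Tfrc, with an adjusted p of 0.000241 by limma. Steap3, the endosomal ferrireductase, peaked at ZT22.2 (amplitude 0.47 ± 0.0590, adjusted p = 1.92e-05). Slc39a14 (ZIP14), the importer of iron not bound to transferrin, had a mean of 119.6 ± 12.2 at ZT1 and of 221 ± 44.0 at ZT13 (SD, n = 3 for both) and peaked at ZT11.3 (adjusted p = 0.00135). Steap4, another metalloreductase, peaked at ZT11.9 (amplitude 0.47 ± 0.0846, adjusted p = 0.000853).

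Among 12 acute phase genes, which rise with inflammation as hepcidin does, 6 had a rhythm. Saa1 had the largest amplitude, 1.32 ± 0.386 (SE, peak ZT12.4, adjusted p = 0.0305), but its livers were far apart within time points, with 59.4, 901 and 34.6 at ZT9 and 43.8, 623 and 68.0 at ZT13, and the call was lost without liver 2 of ZT13 (0.0930). The liver with 901 for Saa1 had 203 for Hamp, the lowest of its time point, and the liver with 623 had 472, the middle one. Fgg and Fga, chains of fibrinogen, peaked at ZT0.897 and ZT1.78 (adjusted p = 0.00444 and 0.0218), and Orm1 and Crp, plasma proteins of the acute phase, at ZT16.4 and ZT19.7 (adjusted p = 0.0211 and 0.00911). The call of Fga was lost without liver 3 of ZT13 (0.0667) and that of Orm1 without liver 1 of ZT5 (0.0621).

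For the 3 rhythmic members, the genes most like them in pattern over the 18 livers were found by Pearson r of log2(value + 1) among 12480 genes with a mean value of at least 1, as a description. Tfrc was most like Chordc1 (r = 0.894), Psme3 (0.883) and Manf (0.868). Slc40a1 was most like Rps6ka1 (0.869), Tox (0.867) and Slc36a4 (0.862). Bmp6 was most like Flt4 (0.877), Eng (0.875) and Mrc1 (0.872). The livers are shared by all these pairs, and the genes nearest to a member were picked as the highest of many.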

How the data were processed

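Gene expression was measured by RNA sequencing of polyA RNA in 18 mouse livers. Per the labels and methods, the authors removed adapters with cutadapt, mapped reads on the GRCm38 transcriptome, estimated counts with RSEM 1.2.20 (base calls with CASAVA 1.8.2, versions from the submitters' processing notes) and normalized them with limma. The table deposited by the authors holds a linear signal, in which each estimated count has 0.5 added and is expressed per 1000000 reads of a library size that they had adjusted. Depth was 10268168 to 23242842 estimated reads per liver, and the value of 0 reads lay between 0.0208 and 0.0478. No column was left unmapped to a liver (0 of them). Reads divided between near-identical genes are not whole, so tests for whole counts were not used.

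Groups came from the labelled zeitgeber time. Of 14451 rows, 14449 above the lowest value in at least 1 liver were tested. Limma 3.58.1 (R 4.3.3) fitted log2(value + 1) with a variance trend, once with a 24 h cosine and sine and once with 6 time point means, giving moderated F tests and the dark minus light contrast, adjusted by Benjamini–Hochberg over all genes at 0.05. Fold changes on this scale understate changes of low genes. JTK (periods 20, 24 and 28 h) and MC (Fisher combination with Lomb–Scargle) were written in Python 3.11.15 with numpy 2.4.6 and scipy 1.17.1, and were tested, like limma, on simulated data. JTK called 2039 genes and MC 2640, each fewer than the authors report as shared by both methods. A gene missed by these versions could therefore be called by the published tools. CircaN was not run, since the constants of its curves were not given in the text. Correlations used 100000 permutations. Sequences came from GENCODE M21 and RefSeq (GRCm38.p6).

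The members and the gene lists were chosen with earlier results of these data known. Named genes were the 10 members, at most 5 genes per list with the largest amplitude among those called, and the 3 genes most like each called member. Alternatives were pseudocounts of 0.1 and 5, a mean value of at least 1, median-of-ratios size factors, no variance trend, a 12 h term, other JTK and MC settings and each liver left out. All p-values take these mice as the replicates, with 1 liver per mouse.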

Additional observations from a re-analysis of the deposited data

How the results depend on the processing

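The number of members with a 24 h rhythm by limma was 3 under all 6 alternative settings and 2 to 3 with 1 liver left out. The members that differed among time points were 3 to 5, those that differed between phases 2 to 4, and the pathway genes with a rhythm 34 to 42 with 1 liver left out. Calls by JTK ranged from 0 to 2 and calls by MC from 1 to 2. JTK called 0 members without any 1 of the livers of ZT5, where 2 still had an unadjusted p under 0.05 and limma called 2 or 3 and MC called 1. MC called 0 members when the p-values were joined by Bonferroni instead of Fisher, again with 2 at an unadjusted p under 0.05, while JTK called 2. The dark minus light difference changed sign in Tfr2, where it ran from -0.0301 to 0.0145 with 1 liver left out (above 0 without liver 3 of ZT1, liver 2 of ZT9 or liver 3 of ZT13), and in Trf, where it ran from -0.00567 to 0.0863 (below 0 without liver 2 of ZT5). The adjusted p of these 4 fits was at least 0.840. The dark call of Hamp was lost without a variance trend (adjusted p = 0.0721), that of Ftl1 was gained under 4 of 5 settings (0.0397 to 0.0467), and the cause was not tested. Over the values of single genes and the correlation of Hamp with Smad7, 991 kept their direction and call, 58 lost and 10 gained the call. That correlation, on deviations from time point means, was run without each liver, an alternative chosen after the data were seen. Its call was lost in 11 of 18 runs, which are among the 58. No paired analysis was possible because each liver came from its own mouse, so the design holds no pairs. Bmp6 had the fewest estimated reads of the members, and what depth did to its call was not tested.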
